A study of Mus musculus with 6 samples.

Results

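The genes described here are 34 genes of glycolysis and of the response to low oxygen. They were chosen by name, as glycolytic enzymes, glucose and lactate transporters, and genes of the hypoxia-inducible factor (HIF) pathway, and each was found in the deposited table of 27179 genes. All 34 passed the filter on low counts, which 14842 genes passed. RNA was sequenced from EpCAM-positive epithelial cells sorted from mouse lungs at embryonic stage E16.5. The 3 control libraries, called control replicates 1, 3 and 7, were Shh-Cre;Grhl2f/+, and the 3 knockout libraries, called Grhl2_cKO replicates 1, 5 and 10, were Shh-Cre;Grhl2f/-. In Shh-Cre animals the Sonic hedgehog locus, which is active in lung epithelium, expresses Cre, and Grhl2 encodes an epithelial transcription factor of the grainyhead family. All animals carried Shh-Cre, and controls carried a floxed allele too, so the control level is that of cells with 1 intact Grhl2 allele where Cre had acted. Each genotype had 2 male libraries and 1 female library. The sources used here do not state whether a library came from 1 embryo, so p-values measure the spread between these libraries, which may be technical. Values per library are given in the order control 1, 3, 7 and Grhl2_cKO 1, 5, 10.

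Glycolysis splits glucose into pyruvate in the cytosol, and cells with little oxygen or fast growth turn much of that pyruvate into lactate and export it. The response to low oxygen is run by HIF, a pair of an alpha subunit (Hif1a, Epas1 or Hif3a) and the partner Arnt. With oxygen present, prolyl hydroxylases (the Egln genes) mark the alpha subunits for destruction. When oxygen falls, the pair binds short DNA elements and raises genes for glycolysis, lactate export, vessel growth and mitochondrial turnover, with Egln3 among its own targets as a brake. The embryonic lung grows in low oxygen, and Vegfa made by its epithelium guides the vessels around it.

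The HIF pair binds DNA at the letters ACGTG or GCGTG. The stretches below are the 250 bases before the RefSeq start of the 2 genes whose level differed between the genotypes, Slc16a3 and Egln3, and of Pgk1, a glycolytic gene whose level did not pass the test. They were taken from the RefSeq promoter table of build GRCm38.p6 and are written 5′ to 3′ on the gene's strand, with ACGTG or GCGTG on either strand in capitals. They lie at chr11:120948817-120949066 on the plus strand for Slc16a3, at chr12:54203875-54204124 on the minus strand for Egln3 and at chrX:106186850-106187099 on the plus strand for Pgk1.
Slc16a3: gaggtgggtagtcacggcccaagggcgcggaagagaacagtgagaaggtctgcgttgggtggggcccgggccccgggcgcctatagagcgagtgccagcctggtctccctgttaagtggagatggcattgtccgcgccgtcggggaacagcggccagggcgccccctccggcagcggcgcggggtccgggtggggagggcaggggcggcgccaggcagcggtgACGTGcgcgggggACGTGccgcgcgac
Egln3: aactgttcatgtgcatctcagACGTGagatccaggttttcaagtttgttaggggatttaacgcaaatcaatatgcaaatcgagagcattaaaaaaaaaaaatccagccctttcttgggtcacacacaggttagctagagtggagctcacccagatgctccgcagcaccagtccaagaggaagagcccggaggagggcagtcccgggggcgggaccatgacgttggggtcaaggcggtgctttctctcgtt
Pgk1: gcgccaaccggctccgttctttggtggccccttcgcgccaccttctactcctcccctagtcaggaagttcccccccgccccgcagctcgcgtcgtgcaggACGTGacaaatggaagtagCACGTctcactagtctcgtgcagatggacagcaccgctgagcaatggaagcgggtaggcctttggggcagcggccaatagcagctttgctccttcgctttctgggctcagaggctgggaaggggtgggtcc
Slc16a3 held 2 such cores, whose first bases stand 27 and 14 bases before the start. The stretch lies downstream of an earlier annotated Slc16a3 start, and 14 of its bases lie in an exon annotated by GENCODE. Egln3 held 1 core, 229 bases before the start, and Pgk1 held 2, at 150 and 131 bases, the latter on the opposite strand (CACGT as printed). Of the 34 genes, 31 matched the promoter table, with 48 windows of 300 bases (250 before and 50 after a start). The core was in 36 of these windows (75%), and in 43.8% of all 32851 windows of the table. The grainyhead motif AACCGGTT was in 0 of the 48 windows and in 0.146% of all windows, and the looser AACNNGTT was in 2 of the 48 (4.17%), in Hk1 and Aldoc, and in 4.2% of all windows. These matches describe letters in these windows. No binding was measured, and 28 of the 31 genes had a core in at least 1 window, both called genes and most of those that were not.

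Libraries held 13472216 to 17228762 counts, and 3 counts, the limit that a count of 0 allows, equal 0.174 to 0.223 CPM (a gene's share of the TMM-scaled library size, in the usual CPM unit; the limit covers counting error only). Grhl2, the targeted gene, fell to 74.4% of control (log2 fold change -0.43 ± 0.05 SE, n = 3 per group, edgeR adjusted p = 0.00204), with groups that did not overlap, and counts of the whole gene do not show the deleted part alone. The 6 epithelial markers were present in each library, with a summed level of 2408 to 2662 CPM in controls and 2062 to 2190 CPM in Grhl2_cKO. Of them Epcam, the gene of the sorting antigen, was called lower (67.6% of control, edgeR adjusted p = 0.00527). Cdh1, Krt8 and Krt18 stood at 83%, 71.8% and 77.3% of control and did not pass (edgeR adjusted p = 0.239, 0.0843 and 0.317). Nkx2-1 and Foxa2 stood at 103% and 105%. The 6 ciliated cell markers summed to 98.14 to 136.6 CPM in controls and 54.54 to 81.16 CPM in Grhl2_cKO, with 4 of 6 called lower. Genes of other cell types were also counted: summed endothelial markers (8 of 8 at 1 CPM or more in every library) stood at 151.2 to 224.2 CPM in controls and 194.9 to 209.3 CPM in Grhl2_cKO, mesenchymal markers (8 of 8) at 863.6 to 1384 and 836.2 to 1704 CPM, and heart muscle markers (5 of 9) at 161 to 190.3 and 215.9 to 428.8 CPM. The heart sum without Myh7, the 1 heart marker called (higher), was 43.83, 22.57 and 28.69 CPM in controls and 228.3, 27.27 and 20.06 CPM in Grhl2_cKO, so the other 8 were high in Grhl2_cKO replicate 1 alone. Leukocyte and erythroid sums were low, at 9.93 to 13.81 and 20.63 to 57.49 CPM in controls and 9.689 to 18.8 and 19.89 to 57.86 CPM in Grhl2_cKO, and no marker of these lists was at 0 in every library. The 10 immediate early and heat shock genes that mark dissociation stress summed to 4990 CPM in control replicate 1 and to 2855 to 3523 CPM in each of the other 5. The sum reflects the immediate early genes. The heat shock genes Hspa1a and Hspa1b were highest in control replicate 7 (5.158 and 7.286 CPM, beside 2.912 and 4.331 CPM in control replicate 1). In bulk samples, fewer cells of a type and less RNA per cell cannot be told apart.

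Between the genotypes, Slc16a3 rose 1.64-fold in Grhl2_cKO and Egln3 fell to 69% of control, and the other 32 genes did not pass the test. These are 1 gene higher and 1 lower of 34, where 1.21% of all genes tested were called higher and 2.38% lower (quasi-likelihood test of edgeR, adjusted p under 0.05 after Benjamini and Hochberg; 3.59% in either direction), so a pair of calls among 34 genes is close to what the whole table gives. Of the 18 genes from glucose entry to lactate export, 17 had a log2 fold change above 0, with a median of 0.17, where 48.5% of all genes tested lay above 0 and their median was 0. For the 16 kinases of pyruvate dehydrogenase and HIF genes the median was -0.01, with 6 above 0 and 10 below, where 51.5% of all genes lay below 0.

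**Figure D1:**
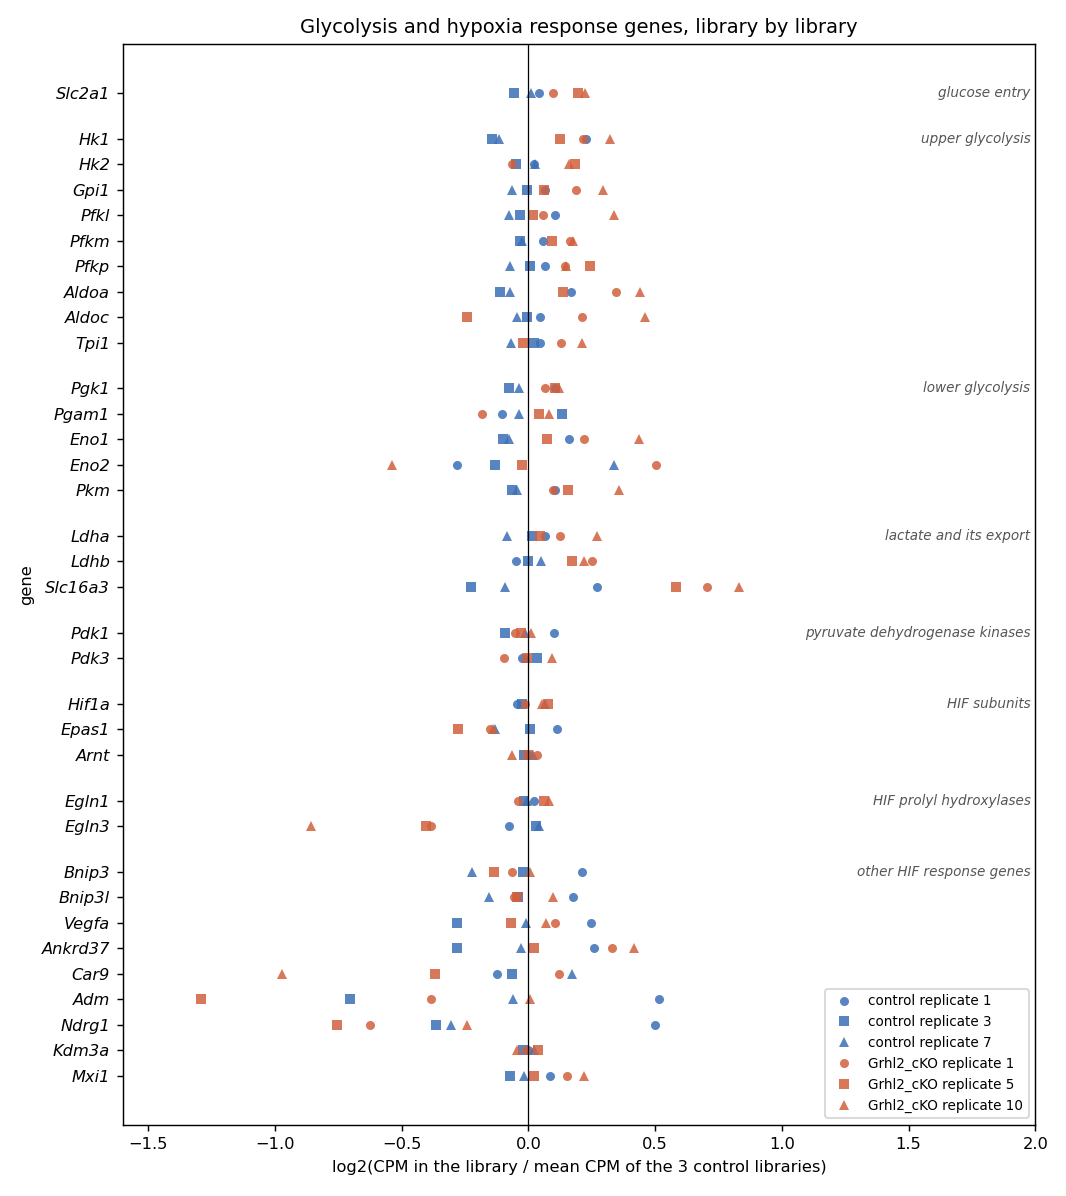
Level of each of the 34 genes in each library, as log2 of its CPM over the mean CPM of the 3 controls; blue symbols are control libraries, orange symbols Grhl2_cKO libraries, and the vertical line is the control mean. Slc16a3 lies right of the line and Egln3 left of it in all 3 Grhl2_cKO libraries, and Grhl2_cKO replicate 10 (orange triangles) is the highest knockout library for 14 of the 18 genes from Slc2a1 to Slc16a3. The same library is the highest knockout for 5306 of all 14842 genes tested.

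The levels of the glycolytic genes also differed between libraries of a genotype. Grhl2_cKO replicate 10 had the highest level of the 3 knockout libraries for 14 of the 18 genes, and control replicate 1 had the highest of the 3 controls for 14 of the 18. Over all 14842 genes tested, these libraries were highest in their group for 5306 and 5630 genes. Each was also highest in its group for 10 of the 16 kinase and HIF genes. The summed level of the 18 genes was 3326, 3057 and 3010 CPM in control replicates 1, 3 and 7 and 3455, 3341 and 3875 CPM in Grhl2_cKO replicates 1, 5 and 10. The lowest knockout library thus stood just above the highest control. The 18 values are not independent of each other, and no test was made on their sum. Without Grhl2_cKO replicate 10 the median log2 fold change of the 18 was 0.13, and without control replicate 1 it was 0.21. The summed epithelial and ciliated markers were lower in each knockout library than in any control (ciliated 54.54 to 81.16 CPM, controls 98.14 to 136.6 CPM), and their part in the glycolytic levels was not tested.

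Glucose enters epithelial cells through Slc2a1, the transporter GLUT1 (Entrez 20525, chromosome 4, 119108745 to 119137330, GRCm38). The controls held 143.7, 134 and 140.5 CPM, and the knockouts 149.2, 159.5 and 162.6 CPM. Every knockout library lay above every control. Its log2 fold change of 0.17 ± 0.06 (SE, 3 libraries a group), or 113% of control with a 95% interval of 103% to 123%, did not pass (edgeR adjusted p = 0.157). Groups that did not overlap in this direction were found for 8.17% of all genes tested and for 5 of the 18 glycolytic genes: Slc2a1, Pfkm, Pfkp, Ldhb and Slc16a3.

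None of the 9 genes of upper glycolysis was called by edgeR (4 had an unadjusted p under 0.05, all higher, against 5.99% of all genes; limma-voom called none and DESeq2 called Aldoa). Hexokinase traps glucose in the cell as its phosphate. Hk1 stood at 77.5, 59.9 and 61.0 CPM in controls and 76.8, 72.1 and 82.7 CPM in Grhl2_cKO, and control replicate 1 lay within the knockout range. Its log2 fold change was 0.23 ± 0.10 (edgeR adjusted p = 0.366), and 0.36 without control replicate 1, where it passed (edgeR adjusted p = 0.0299; 0.0299 to 0.754 over its alternatives). Hk2, the form known as the hypoxia-responsive hexokinase, had overlapping groups at 91.3 to 96.4 and 90.3 to 107.3 CPM and 107% of control (95% interval 95.6% to 120%).

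Gpi1, which turns glucose phosphate into fructose phosphate, stood at 151.6 ± 6.83 and 172.4 ± 13.8 CPM (SD, n = 3 each; edgeR adjusted p = 0.225). The 3 phosphofructokinase genes encode the step that commits sugar to glycolysis. Pfkl, the liver type, had 111% of control (95% interval 96.4% to 127%), Pfkm, the muscle type, 111% (100% to 122%) and Pfkp, the platelet type, 113% (98.2% to 131%). None of the 3 passed, though the groups of Pfkm (52.7 to 56.1 and 57.6 to 61.0 CPM) and Pfkp (14.1 to 15.5 and 16.4 to 17.6 CPM) did not overlap.

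Aldolase splits the sugar into a pair of triose phosphates. Aldoa was at 278.8, 229.8 and 235.9 CPM in the controls, while the knockouts held 315.5, 273 and 336.9 CPM. Grhl2_cKO replicate 5 was below control replicate 1, so the groups overlapped. The log2 fold change of 0.31 ± 0.09 did not pass (edgeR adjusted p = 0.128). It passed with DESeq2 (adjusted p = 0.0169) and in edgeR without control replicate 1 (adjusted p = 0.0286). Its alternatives spanned adjusted p from 0.0169 to 0.388. Aldoc, the brain type, was far lower, with 119 to 210 counts per library and a log2 fold change of 0.17 ± 0.17. Tpi1, which interconverts the trioses, stood at 429.7 ± 17.2 and 463.2 ± 37.3 CPM (95% interval 95.9% to 121% of control).

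In lower glycolysis none of 5 genes was called (edgeR; 2 had an unadjusted p under 0.05, both higher; DESeq2 and limma-voom called none). Pgk1 and Pkm make the ATP of the pathway, Pgam1 moves the phosphate and the enolases remove water. Pgk1 had 107% of control (95% interval 95% to 121%) and Pgam1 98.8% (85.6% to 114%), the 1 glycolytic gene of the 18 below 0. Eno1 stood at 204.7, 170.9 and 173.6 CPM in controls and 213.3, 192.9 and 247.8 CPM in Grhl2_cKO. Its groups overlapped through control replicate 1, and its log2 fold change of 0.25 ± 0.10 did not pass (edgeR adjusted p = 0.273).

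Eno2, the neuronal enolase, had only 36 to 77 counts per library, and its 95% interval ran from 66.5% to 158% of control. It stood at 2.69 to 4.13 CPM in controls and 2.25 to 4.63 CPM in Grhl2_cKO. The 8 neuron markers measured beside it summed to 11.8 to 15.38 and 24.13 to 29.68 CPM, mostly Ret, and without Ret to 2.708 to 5.376 and 4.792 to 11.59 CPM, where the groups overlapped. Ret and Tubb3 were each called higher, at 218% and 691% of control (edgeR adjusted p = 0.00112 and 0.0337), Tubb3 on only 3 to 61 counts. Pkm, the pyruvate kinase gene, stood at 803.2, 714.7 and 724.9 CPM in controls and 800.4, 834.2 and 958.6 CPM in Grhl2_cKO. Only Grhl2_cKO replicate 1 fell below the highest control, and the log2 fold change was 0.21 ± 0.09 (edgeR adjusted p = 0.34).

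The 1 call among the glycolytic genes was in lactate export. Slc16a3 encodes MCT4, the transporter that carries lactate out of glycolytic cells (Entrez 80879, chromosome 11, 120948484 to 120959000). The controls held 25.9, 18.4 and 20.2 CPM of it and the knockouts 35.0, 32.2 and 38.2 CPM, on 302 to 646 counts per library. The lowest knockout library was above the highest control, and control replicate 1 was again the highest control. This is 0.71 ± 0.13 on the log2 scale (SE, 3 libraries a group), or 164% of control with a 95% interval of 135% to 199% (edgeR adjusted p = 0.0128). Leaving out control replicate 3 (edgeR adjusted p = 0.0534) or Grhl2_cKO replicate 10 (0.062) ended the call, and the 15 alternatives gave 9.38e-06 to 0.062.

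Lactate dehydrogenase joins pyruvate and lactate. Ldha, whose enzyme favours lactate, stood at 637.4, 614.2 and 574.1 CPM in controls and 664.1, 628.9 and 733.6 CPM in Grhl2_cKO, or 111% of control (95% interval 98.1% to 126%). Ldhb, whose enzyme is best known in oxidative tissue, stood at 59.4, 61.3 and 63.5 CPM in controls and 73.0, 69.1 and 71.4 CPM in Grhl2_cKO. The groups of Ldhb did not overlap, while those of Ldha did. Its log2 fold change of 0.21 ± 0.06 did not pass (edgeR adjusted p = 0.0951; 0.0706 to 0.265 over its alternatives). Grhl2_cKO replicate 1, the library with high heart muscle markers, was also the highest for Ldhb, which heart muscle makes in quantity. Every knockout library lay above every control for Ldhb and also for Myh7 (191.5 to 200.5 CPM, controls 138.4 to 146.5 CPM). The other 8 heart markers did not follow this pattern. Their sum was 228.3 CPM in Grhl2_cKO replicate 1 but 27.27 and 20.06 CPM in replicates 5 and 10, beside 22.57 to 43.83 CPM in controls. The part of heart muscle in the value of Ldhb was not tested.

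**Figure D2:**
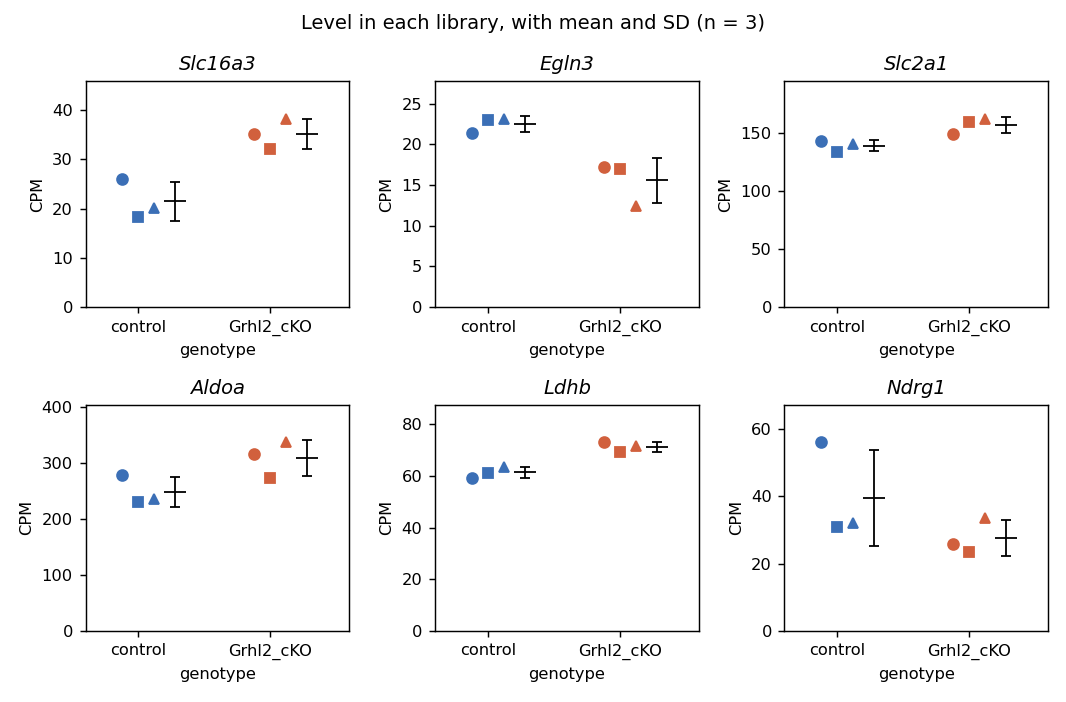
CPM of 6 genes in each library by genotype (symbols: replicates, in the order of their numbers; bars: mean and SD, n = 3; axes start at 0). Slc16a3 and Egln3 separate the genotypes with fold changes of 1.64 and 0.69, Slc2a1 and Ldhb separate them by a smaller margin, and Aldoa and Ndrg1 overlap through control replicate 1 or Grhl2_cKO replicate 10.

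Pyruvate dehydrogenase kinases block the mitochondrial enzyme that feeds pyruvate into the citric acid cycle. Pdk1, a HIF target, had 98.5% of control (95% interval 89.8% to 108%) and Pdk3 99.9% (90.2% to 111%). Neither had an unadjusted p under 0.05, in edgeR, DESeq2 or limma-voom.

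None of the 3 HIF subunit genes was called by edgeR, DESeq2 or limma-voom (Epas1 had an unadjusted edgeR p under 0.05, as did 7.28% of all genes in this direction). Hif1a stood at 241, 244.2 and 259.8 CPM in controls and 245.7, 261.7 and 257.6 CPM in Grhl2_cKO, and its 95% interval was 93.9% to 112% of control. Arnt, the shared partner, had an interval of 91.7% to 108%. Epas1, which encodes HIF-2 alpha and is strong in endothelium as well as in epithelium, stood at 50.9, 47.3 and 43.0 CPM in controls and 42.4, 38.9 and 42.7 CPM in Grhl2_cKO. Its groups did not overlap, by less than 1 CPM, as for 9.89% of all genes in this direction, and its log2 fold change of -0.19 ± 0.08 did not pass (edgeR adjusted p = 0.361). The endothelial markers summed to 224.2, 212.1 and 151.2 CPM in the controls, the same order as Epas1, and to 194.9, 209.3 and 208.3 CPM in the knockouts, within the control range. Their part in the level of Epas1 was not tested. HIF alpha subunits are controlled mainly as proteins, which were not measured.

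Of the pair of prolyl hydroxylases, which sense oxygen for HIF, 1 fell. Egln3, also called PHD3 (Entrez 112407, chromosome 12, 54178981 to 54203874), was at 21.4, 23.0 and 23.2 CPM in the controls, while the knockouts held 17.2, 17.0 and 12.4 CPM. The controls lay close together, and Grhl2_cKO replicate 10 was the lowest library. This is -0.53 ± 0.13 on the log2 scale (SE, 3 libraries a group), or 69% of control with a 95% interval of 56.8% to 83.9% (edgeR adjusted p = 0.0481). This call sat at the threshold: it was kept in 5 of 15 alternatives, which include DESeq2 and limma-voom, and lost in each of the 6 fits without 1 library, with adjusted p from 0.01 to 0.16 over all 15. Without Grhl2_cKO replicate 10 the log2 fold change was -0.39. Egln1, the main hydroxylase of HIF-1 alpha, stood at 110.1 ± 1.6 and 112.8 ± 5.07 CPM (SD, n = 3 each; 95% interval 94.2% to 111% of control).

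**Figure D3:**
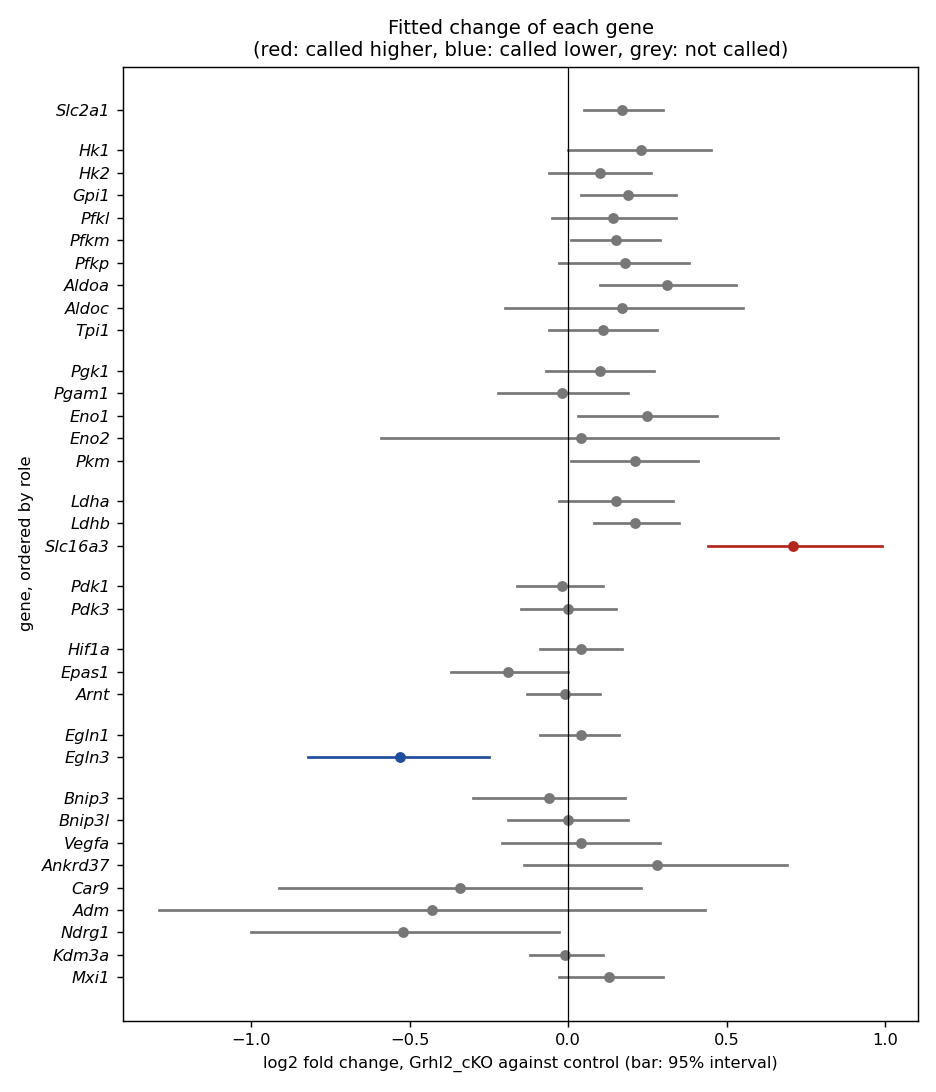
Log2 fold change of Grhl2_cKO against control for each of the 34 genes, in the order of their roles; points are edgeR estimates and bars their 95% intervals (n = 3 per group). Slc16a3 (red) and Egln3 (blue) are called, 17 of the first 18 points lie right of 0, and the widest interval is that of Adm, from -1.29 to 0.43.

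The other 9 HIF response genes had no call (edgeR; 1, Ndrg1, had an unadjusted p under 0.05; DESeq2 and limma-voom called none), with 4 above 0, 5 below and a median of -0.01. Vegfa, the vessel growth factor, stood at 294.5, 204.6 and 246.6 CPM in controls and 267.3, 237.2 and 260.5 CPM in Grhl2_cKO. The knockout libraries fell within the span of the controls, and the 95% interval was 86.2% to 122% of control. Bnip3 and Bnip3l, which mark mitochondria for removal, had intervals of 81.4% to 113% and 87.9% to 114%. Kdm3a, a histone demethylase, had the narrowest of the 9, at 92.1% to 108%, and Mxi1, an antagonist of Myc, had 110% of control (97.6% to 123%).

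Ndrg1, a stress-responsive gene, was at 56.1, 30.8 and 32.1 CPM in the controls, while the knockouts held 25.7, 23.5 and 33.5 CPM. A single control was high and the groups overlapped. The log2 fold change of -0.52 ± 0.22 did not pass (edgeR adjusted p = 0.337) and was -0.18 without control replicate 1. That library also had the highest sum of dissociation stress genes, and its part in the value was not tested.

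The remaining 3 genes were low. Car9, a carbonic anhydrase and classical hypoxia marker, had 40 to 84 counts per library and 79% of control (95% interval 53.3% to 117%). Adm, which encodes the vessel hormone adrenomedullin, had 12 to 36 counts and an interval of 40.9% to 135%. Ankrd37 had 64 to 107 counts and an interval of 90.9% to 161%. At this depth the intervals of Car9 and Adm include a fall as large as that of Egln3, and that of Ankrd37 reaches nearly as high as the rise of Slc16a3.

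The count of called genes among the 34 moved with the fit, as did that of the whole table. With DESeq2 it was 3 (Aldoa, Slc16a3 and Egln3), where 4.51% of all genes with an adjusted p were called, and with limma-voom it was 2, where 3.66% were. It was 1, Slc16a3, with RLE scaling (3.59% of all genes), upper-quartile scaling (3.65%), total-count scaling (3.59%) or sex as a covariate (3.03%). Without control replicate 1 it was 3 (Hk1, Aldoa and Slc16a3; 3.33% of all genes), and it was 1, Slc16a3, without control replicate 7 (2.15%), Grhl2_cKO replicate 1 (3.12%) or Grhl2_cKO replicate 5 (1.65%). It was 0 without control replicate 3 (1.95%; edgeR, 5 at an unadjusted p under 0.05) and without Grhl2_cKO replicate 10 (1.63%; edgeR, 6 at an unadjusted p under 0.05).

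The make-up of each step by isoenzyme was set on levels per length (RPKM, the CPM per kilobase of the gene length in the deposited table). Summed over the 3 genes of phosphofructokinase, Pfkl made up 73.8% ± 0.615 in controls and 73.6% ± 2.07 in Grhl2_cKO (SD, n = 3 each). Hk1 made up 45.9% ± 3.28 and 48.3% ± 2.99 of the hexokinase pair, Aldoa 96.2% ± 0.287 and 96.6% ± 0.448 of the aldolase pair, Eno1 98.8% ± 0.352 and 98.9% ± 0.42 of the enolase pair and Ldha 86.9% ± 0.989 and 86.3% ± 0.813 of the lactate dehydrogenase pair. For each of these enzymes the libraries of the genotypes overlapped. For the HIF alpha subunits the shares of Hif1a and Hif3a separated, and those of Epas1 overlapped. Hif1a made up 50, 51.4 and 50.3% in controls and 55.3, 56.5 and 58.4% in Grhl2_cKO, and Hif3a made up 40.6, 39.8 and 42.3% and 36.3, 36.1 and 32.9%. The level of Hif1a itself was 103% of control and that of Hif3a 78.5% (edgeR adjusted p = 0.916 and 0.0325). No test was made on these shares, and 3 against 3 libraries cannot reach an exact permutation p under 0.1.

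**Figure D4:**
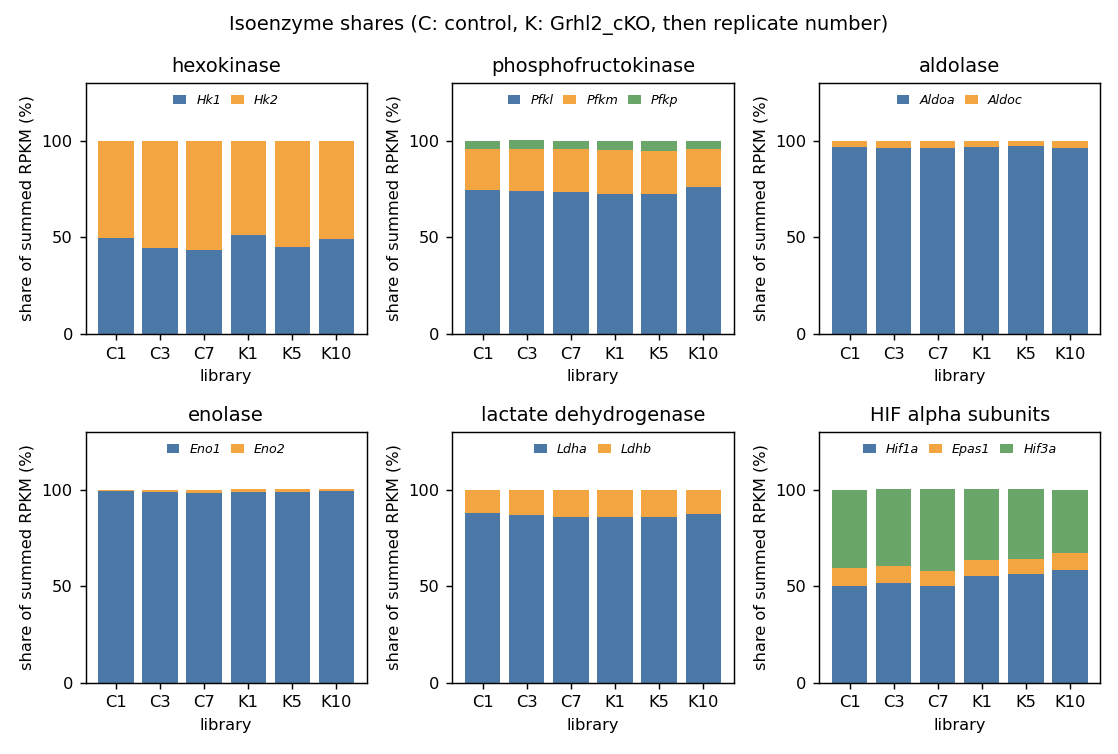
Share of each isoenzyme or subunit in the summed RPKM of its step, for each library (C: control, K: Grhl2_cKO, followed by the replicate number). The enzyme shares of the genotypes overlap, and the Hif1a share of the HIF alpha subunits is 50 to 51.4% in controls and 55.3 to 58.4% in Grhl2_cKO. The level of Hif1a itself is 103% of control and that of Hif3a 78.5%.

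The other genes of these pathways were taken from 3 further lists. Of 33 tested genes of glycolysis, glucose storage and pyruvate use, 2 fell and none rose (edgeR; 2 higher and 5 lower at an unadjusted p under 0.05; DESeq2 and limma-voom called the same 2). In the whole table edgeR called 2.38% of genes lower and 1.21% higher. Of the 33, 19 lay above 0 and 14 below, with a median log2 fold change of 0.03, beside 0.17 for the 18 glycolytic genes. Pgm1, the phosphoglucomutase that links glycogen to glycolysis (Entrez 72157), stood at 140.8, 130.5 and 120.4 CPM in controls and 108.9, 98.4 and 106 CPM in Grhl2_cKO, or 80% of control (edgeR adjusted p = 0.0315). Pcx, the pyruvate carboxylase that makes oxaloacetate from pyruvate, stood at 58.1, 55.7 and 55.6 CPM in controls and 49.2, 42.1 and 41.5 CPM in Grhl2_cKO, or 78.5% of control (edgeR adjusted p = 0.0421). In both the groups did not overlap. Each was borderline. Pgm1 was called in 9 of 15 alternatives (adjusted p 0.00739 to 0.133). Its call was lost in the fits without any 1 library other than control replicate 7, and also in a fit that kept all libraries. Pcx was called in 8 of 15 (0.0157 to 0.163). Its call was lost without any 1 library other than Grhl2_cKO replicate 1, and also in fits that kept all libraries.

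Of 41 tested further genes of the HIF pathway and the hypoxia response, 3 rose and 1 fell, with 22 above 0, 19 below and a median of 0.03. Over all genes tested, edgeR called 1.21% higher and 2.38% lower. At an unadjusted edgeR p under 0.05, 8 of the 41 were higher and 3 lower, beside 5.99% and 7.28% of all genes. Loxl2, a lysyl oxidase that cross-links collagen, stood at 37.0, 36.4 and 35.5 CPM in controls and 62.7, 57.9 and 68.8 CPM in Grhl2_cKO (1.74-fold, log2 fold change 0.80 ± 0.08, edgeR adjusted p = 0.000487), and was called in 15 of 15 alternatives. P4ha1, the catalytic subunit of collagen prolyl hydroxylase, rose 1.25-fold (edgeR adjusted p = 0.00729), also in 15 of 15. Plod1, a collagen lysyl hydroxylase, rose to 138% of control (edgeR adjusted p = 0.0237). It kept its call in 11 of 15 (not without control replicates 3 or 7 or Grhl2_cKO replicates 5 or 10; adjusted p 0.00266 to 0.11). Other collagen enzymes of the list did not pass: P4ha2 stood at 116% of control, Plod2 at 102% and Lox at 94.3% (edgeR adjusted p = 0.208, 0.931 and 0.911); they are named here after their values were seen. The summed mesenchymal markers, among which are collagen genes, were at 1384, 1165 and 863.6 CPM in the controls and 1704, 836.2 and 983.7 CPM in the knockouts. The groups of these sums overlapped. The groups of the 3 genes did not, as for 8.17% of all genes tested in this direction. The part of mesenchymal cells in the levels of the 3 genes was not tested. An antisense gene overlaps Loxl2, and 43.5% of its windows of 100 bases occur in transcripts of other genes, so its counts are uncertain where the counting did not use strand.

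Hif3a, an alpha subunit known in part as an inhibitor of the others, was the further gene that fell. It stood at 288.3, 279 and 321.9 CPM in controls and 237.6, 246.3 and 214 CPM in Grhl2_cKO, or 78.5% of control with a 95% interval of 69.8% to 88.2% (edgeR adjusted p = 0.0325). The groups did not overlap. It was called in 10 of 15 alternatives (0.00108 to 0.129) and lost in the fits without any 1 library other than control replicate 1. Of the 24 genes of the pentose phosphate pathway and the citric acid cycle, none was called by edgeR, DESeq2 or limma-voom. The edgeR fit had 1 with an unadjusted p under 0.05, Dlst, a subunit of the oxoglutarate dehydrogenase complex, at 188 ± 2.64 and 171.4 ± 0.646 CPM (SD, n = 3 each; edgeR adjusted p = 0.217). Next by p were Rpia, an isomerase of the pentose phosphate pathway, at 89.8% of control and Suclg2, a subunit of succinyl-CoA ligase, at 90% (edgeR adjusted p = 0.483 and 0.493). The log2 fold changes of this list ran from -0.17 to 0.11 with a median of -0.01, beside 0.17 for the 18 glycolytic genes; these differences between lists were not tested.

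Levels of glycolytic genes can be understated where the genome holds near-identical copies, since reads that fit several places may not be counted. The longest coding transcript of each gene in GENCODE M21 was compared with transcripts of all other genes in windows of 100 bases. For Gapdh, the best-known case, 78% of windows recurred exactly in other genes, 80 of them pseudogenes, and it was counted at only 4.44 to 7.06 CPM. Among the 34 genes the share was 67% for Pgk1, 59% for Eno1, 39.7% for Pgam1, 33.5% for Bnip3, 16% for Pfkp and 15.3% for Bnip3l, and under 10% for the other 28. Both called genes, Slc16a3 and Egln3, had none.

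**Figure D5:**
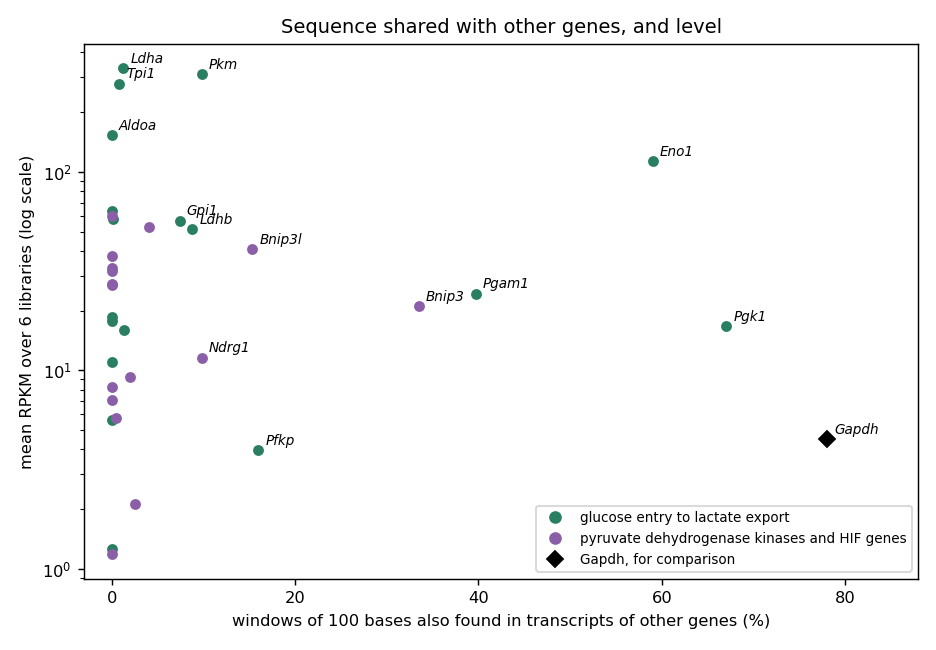
For each of the 34 genes and Gapdh, the percentage of 100-base windows of its longest coding transcript found exactly in transcripts of other genes (horizontal axis) against its mean RPKM over 6 libraries (vertical, log scale). Pgk1, at 67% shared windows, has a mean of 16.7 RPKM, and Gapdh, at 78%, has 4.49 RPKM, while Ldha, Pkm and Tpi1, under 10%, have 279 to 333 RPKM. Other points go the other way: Eno1, at 59%, has 113 RPKM, and Adm and Eno2, at 0%, have 1.18 and 1.26 RPKM.

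On the scale per length, Ldha led the 34 genes at a mean of 333 RPKM over the 6 libraries, followed by Pkm at 310, Tpi1 at 279, Aldoa at 153 and Eno1 at 113 RPKM. Neighbours in this order overlapped in their ranges over the libraries, except Tpi1 and Aldoa. Pgk1, whose enzyme works between those of Aldoa and Eno1, was at 16.7 RPKM, beside its shared windows; how far reads were lost was not tested. Of the HIF genes Vegfa had the highest level, at 60.3 RPKM, followed by Hif1a at 52.9 RPKM, and Epas1 stood at 8.26 RPKM. The lowest were Adm at 1.18 and Eno2 at 1.26 RPKM.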

How the data were processed

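Total counts per gene were deposited by the authors for 6 libraries of sorted lung epithelium, with gene length in bases as a further column. The submitters' processing notes name bcl2fastq 2.17.1.14, featureCounts, edgeR 3.16.5, limma 3.30.12 and the build mm10. Not given in the sources used here were the aligner, whether counting used strand, and how multi-mapping reads were counted.

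Entrez identifiers were matched to symbols and positions with a RefSeq table of GRCm38.p6 (25275 of 27179 matched). The raw counts were tested with edgeR 4.0.16 in R 4.3.3: TMM scaling (factors 0.981 to 1.009), filterByExpr (minimum count 10, minimum total 15), glmQLFit and glmQLFTest, all 6 libraries, no covariate, Benjamini-Hochberg adjustment over 14842 genes, threshold 0.05. Standard errors were derived from each log2 fold change and its F statistic. In simulated counts for this comparison (14704 genes), 66.7% of genes changed 1.5-fold, 85.5% of those changed 2-fold and 96.9% of those changed 4-fold were recovered, with 9 false calls among 169. Smaller shifts than 1.5-fold, such as those of most genes here, were not simulated. Further fits used DESeq2 1.42.0, limma-voom (limma 3.58.1), robust quasi-likelihood, sex as a term, other scalings (total counts, RLE, upper quartile), other filters (none, or at least 1 CPM in 3 libraries) and each subset lacking 1 library. Of the marker genes, 2 were not matched; the marker sums without Myh7 and without Ret were added after the values were seen.

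The 34 genes and the lists were chosen with earlier results of these data known. Named are all 34, Grhl2, and from each further list the called genes or, with none, those of smallest p. The result of 1 further marker list is not reported here.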

Additional observations from a re-analysis of the deposited data

How the results depend on the processing

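The count of called genes over the whole table was 533, and 449 to 669 over the 9 alternatives that kept all libraries. Without 1 library it was 246 to 501, with 293 without control replicate 3, 325 without control replicate 7, 249 without Grhl2_cKO replicate 5 and 246 without Grhl2_cKO replicate 10. Of the 34 genes, 2 were called, and 1, Slc16a3, with RLE, upper-quartile or total-count scaling or with sex as a covariate. In the fits without 1 library 0 to 3 of the 34 were called. None was called without control replicate 3 (edgeR; 5 at an unadjusted p under 0.05: 3 higher and 2 lower) or without Grhl2_cKO replicate 10 (6: 4 higher and 2 lower). Slc16a3 was higher and Egln3 lower in all 15 alternatives, and no called gene named here changed sign. Of the 18 glycolytic genes, 16 or 17 lay above 0 in each alternative, with medians of 0.13 to 0.21. Fits without 1 library assume that groups share 1 spread. No paired analysis was possible because the labels of the genotypes share only replicate number 1. Depth limits Adm, Eno2, Car9 and Ankrd37 most.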
